A study of Mus musculus with 3 samples.

Results

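Oligodendrocyte precursor cells (OPCs) are the glial cells of the brain that divide and give rise to myelinating oligodendrocytes. They carry the receptor for platelet-derived growth factor (encoded by *Pdgfra*), whose ligands keep them dividing, and the proteoglycans NG2 (encoded by *Cspg4*) and versican (*Vcan*). When they commit to the lineage they pass through a stage marked by *Gpr17*, and then switch on the myelin genes. In the adult cortex they are a small population that continues to divide slowly and receives synaptic input from neurons.

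OPC nuclei were taken from single-nucleus RNA-seq of the prefrontal cortex (PFC) of male mice aged 6 to 8 weeks, with 1 library for each of 3 genotypes. The C57BL/6 library pooled 5 mice of this inbred strain, and the *Nav1* KO library pooled 4 mice of the C57BL/6 background that carry a deletion made with Cas9 at the end of exon 1 of *Nav1*, a gene for a neuron navigator protein. The third library came from BTBR T<+> Itpr3<tf>/J, another inbred strain, and how many mice it pooled is not stated in the sources used here. Nuclei were sorted on NeuN, a neuronal antigen, to a set mixture of positive and negative nuclei, so the share of any glial class depends on that sort, and the labels give neurons as the cell type although glial nuclei were present.

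A nucleus was counted as an OPC when it had at least 1 *Pdgfra* UMI (unique molecular identifier, 1 counted transcript) and at least 2 UMIs over *Pdgfra*, *Cspg4* and *Vcan*, and no UMI of the oligodendrocyte genes *Mog* and *Mag*, of the neuronal genes *Slc17a7*, *Gad1* and *Gad2* or of the fibroblast genes *Slc6a13*, *Dcn* and *Col1a2*. Only nuclei that had 200 or more detected genes and less than 10% of their UMIs from mitochondrial genes were considered. The rule found 246 OPC nuclei among 43464 kept nuclei. The C57BL/6 library held 61 of them, the *Nav1* KO library 97 and the BTBR library 88. Their median depth was 1095, 1349 and 1216 UMIs, and they summed to 79087, 145219 and 135474 UMIs. No OPC barcode was shared between libraries. The mice of a genotype shared a library, so no test between genotypes was possible; intervals are exact 95% intervals (Poisson for CPM, UMIs scaled to a fixed total over those nuclei, and Clopper-Pearson for shares) and cover counting error only.

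OPC nuclei made up 0.417% of the C57BL/6 nuclei (0.319 to 0.535), 0.690% of the *Nav1* KO nuclei (0.560 to 0.841) and 0.595% of the BTBR nuclei (0.478 to 0.733). The *Nav1* KO share was 1.66 times (1.19 to 2.32) and the BTBR share 1.43 times (1.02 to 2.01) the share in C57BL/6. Mature oligodendrocyte nuclei, defined by at least 2 UMIs of *Mog* and *Mag*, numbered 108, 83 and 84, and OPC nuclei were 36.1% (28.9 to 43.8), 53.9% (46.3 to 61.3) and 51.2% (43.4 to 58.8) of both classes together. Other sparse classes also differed between the libraries. Astrocyte nuclei stood at 2.71 and 1.87 times and fibroblast nuclei at 2.72 and 1.58 times their C57BL/6 share in *Nav1* KO and BTBR. Nuclei with at least 2 UMIs of olfactory bulb mitral or tufted cell genes were 0.930% of the C57BL/6 nuclei, 5.58% of the *Nav1* KO nuclei and 6.23% of the BTBR nuclei. Nuclei with at least 2 UMIs of striatal genes went the other way, at 12.8%, 9.02% and 9.78%. Median depth over all kept nuclei was 2074, 2754 and 2510.5 UMIs. With 1 pool per genotype, the sort, the dissection, the depth and the genotype cannot be told apart as sources of the difference in OPC share.

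**Figure D1:**
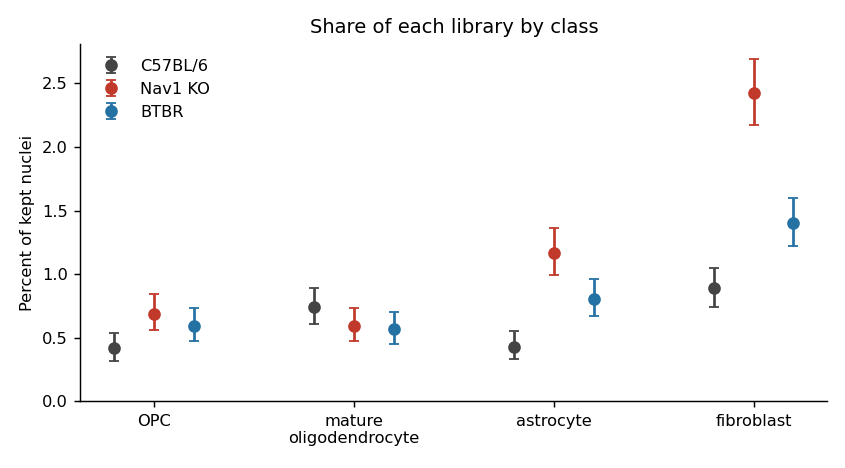
Percent of kept nuclei in 4 classes (y axis) in each library, with exact Clopper-Pearson 95% intervals as bars. OPC nuclei stood at 0.417%, 0.690% and 0.595% in C57BL/6, Nav1 KO and BTBR, and astrocyte and fibroblast nuclei were also less frequent in C57BL/6.

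The rule used *Pdgfra*, *Cspg4* and *Vcan*, so their levels are a description. *Pdgfra* (chromosome 5, 75152292 to 75198215, plus strand, mm10) stood at 1315 CPM in C57BL/6, 1398 in *Nav1* KO and 1284 in BTBR. *Cspg4* (chromosome 9, 56865033 to 56899870, plus strand) stood at 619.6, 689 and 812 CPM, and *Vcan* (chromosome 13, 89655312 to 89742509, minus strand) at 1113, 1281 and 1041 CPM. The levels of *Pdgfra* lay close together across the 3 libraries. A member held between 2 and 14 UMIs over the 3 genes. *Cspg4* was seen in 32 of 61, 62 of 97 and 60 of 88 OPC nuclei and *Vcan* in 48, 80 and 65, while *Pdgfra* was the only gene of the rule in 6, 8 and 8.

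The label was checked against 16 OPC markers that the rule did not use, which are *Sox10* and 15 others. At least 3 of the 16 were seen in 60 of 61 C57BL/6, 95 of 97 *Nav1* KO and 84 of 88 BTBR OPC nuclei. The same held for 12 of 108, 18 of 83 and 17 of 84 mature oligodendrocyte nuclei, and for 33 of 63, 98 of 164 and 77 of 119 astrocyte nuclei, which share several of these markers. Among glutamatergic nuclei, which were deeper (medians of 2943, 3706 and 3214 UMIs), it held for 26.0%, 31.3% and 25.8%. When all kept nuclei were clustered without reference to the rule, 213 of the 246 members (86.6%) fell into 1 cluster of 723 nuclei. Its 10 leading genes were *Cspg4*, *Pdgfra*, *Neu4*, *Gpr17*, *C1ql1*, *Vcan*, *Olig1*, *Matn4*, *Olig2* and *C430049B03Rik*. The rule genes *Cspg4*, *Pdgfra* and *Vcan* are among them, and the clusters came from counts of the same nuclei. The overlap of members and cluster is therefore not independent of the rule. A further 13 members lay in a cluster led by the astrocyte gene *Aqp4* (3, 3 and 7 from C57BL/6, *Nav1* KO and BTBR) and 7 in a cluster led by the microglial gene *C1qa* (4, 1 and 2).

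The rule took fewer nuclei than that cluster held. The cluster made up 1.26% of the C57BL/6, 1.95% of the *Nav1* KO and 1.79% of the BTBR nuclei, and 39.1%, 43.1% and 39.6% of its nuclei carried a UMI of *Slc17a7*, *Gad1* or *Gad2*, which the rule does not allow. Of 723 nuclei that met the requirement for *Pdgfra* and the 3-gene sum, 246 also met the exclusions. Of those left out, 93 had a single neuronal UMI as their only fault, and 73 of the 93 lay in the OPC cluster. Just inside the limit, 44 members had exactly 2 UMIs of the rule genes, and 35 of them lay in the cluster. Just outside it, 109 nuclei had *Pdgfra* as their only UMI of the rule and 19 lay in the cluster. In those 109 the meningeal fibroblast gene *Ranbp3l* stood at 407, 743 and 344 CPM, against 12.6, 34.4 and 59.1 CPM in the members. A further 133 nuclei had no *Pdgfra* UMI but at least 2 of *Cspg4* and *Vcan*, and 85 of them lay in the cluster.

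OPC nuclei were compared with mature oligodendrocyte, astrocyte, glutamatergic and GABAergic nuclei of the same library. A gene was called higher when its CPM (with 5 CPM added to both sides) was at least 2-fold above the highest of the 4 other classes in each of the 3 libraries. The classes were built from counts of these same nuclei, so the folds are a description with no test. Of 5746 genes with at least 20 CPM in the OPC nuclei of every library, 104 (1.81%) were called. Without the BTBR library, 165 genes were called. Against mature oligodendrocyte nuclei alone, 448 (7.80%) were called higher in OPC nuclei. Apart from the genes that define the classes, which were left out, the gene with the highest lowest fold over the libraries was *C1ql1*, which encodes a secreted C1q-like protein. It had 14, 67 and 45 UMIs in OPC nuclei, or 177, 461 and 332 CPM, and at most 7.32 CPM in any of the 4 other classes, with a lowest fold of 18.7. *Shc4*, an adaptor of receptor tyrosine kinases, stood at 139, 227 and 251 CPM, with a lowest fold of 15.5. *C1ql1* and *Shc4* were lower in C57BL/6 than in the other two libraries.

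The other genes among the 25 with the highest folds fell into several kinds. *Cacng4*, an auxiliary subunit of AMPA receptors, stood at 329, 413 and 325 CPM (lowest fold 7.61), and *Kcnh8*, a potassium channel, at 139, 75.7 and 51.7 CPM (4.58). Genes of the extracellular matrix and its modification included *Matn4*, a matrilin, at 733, 813 and 598 CPM (4.94), *Tnr*, tenascin-R, at 721, 709 and 635 CPM (4.44), the membrane-bound metalloproteinase *Mmp15* (5.34) and the sulfotransferase *Chst5* (4.45). *Arhgap31*, a GTPase-activating protein, had 35, 101 and 87 UMIs (6.01). *Myt1*, a zinc finger transcription factor, stood at 177, 145 and 162 CPM (5.65), and the protocadherin *Pcdh15* at 683, 599 and 495 CPM (4.13). *Dll1*, a Notch ligand, had 5, 13 and 7 UMIs (4.10), and *Spry4*, an inhibitor of receptor tyrosine kinase signalling, had 8, 10 and 6 (3.91). The remaining genes were *Sapcd2*, *Emid1*, *C430049B03Rik*, *Lhfpl3*, *S100a2*, *Susd5*, *Cp*, *Armh4*, *Megf11*, *Chadl*, *Afap1l2* and *Qpct*. *Emid1* was also among the leading genes of a cluster of 2126 nuclei other than the OPC cluster. Fibroblast, microglial and endothelial nuclei were not among the 4 classes compared. *Cp*, ceruloplasmin, was higher in fibroblast nuclei, at 241, 225 and 351 CPM against 139, 151 and 88.6 CPM in OPC nuclei. Several rested on few UMIs, as *Chst5* (2, 9 and 3), *S100a2* (2, 12 and 5) and *Susd5* (4, 6 and 4) did.

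Of the list of 15 further OPC markers, 10 were called higher than every other class (1.81% of all genes tested were), and the median of the lowest folds was 3.77, against 0.626 over all 5746 genes. The 5 that were not called were *Olig1*, *Ptprz1*, *Cspg5*, *Luzp2* and *Nxph1*. *Ptprz1*, a receptor phosphatase that binds matrix proteins, stood at 2099, 2617 and 2421 CPM in OPC nuclei and at 1049, 1357 and 1239.9 CPM in astrocyte nuclei. *Cspg5*, a proteoglycan of the cell surface, stood at 2112, 3113 and 2229 CPM in OPC nuclei and at 1453, 1357 and 1308 CPM in astrocyte nuclei. Both genes were below 440 CPM in the other 3 classes. *Luzp2* stood at 341, 386 and 310 CPM in OPC nuclei and at 295, 370.4 and 422 CPM in astrocyte nuclei, and the 2 classes exchanged order between libraries.

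Transcription factors of the lineage were compared gene by gene. *Olig2*, which specifies the lineage, stood at 164, 331 and 221 CPM in OPC nuclei and at 77.7, 35.8 and 58.6 CPM in mature oligodendrocyte nuclei. *Olig1* stood at 354, 496 and 428 CPM in OPC nuclei and at 127, 129 and 219.6 CPM in mature oligodendrocyte nuclei. *Sox10*, which acts throughout the lineage, stood at 114, 207 and 192 CPM in OPC nuclei and at 91.8, 165 and 161 CPM in mature oligodendrocyte nuclei, and at no more than 11.8 CPM in astrocyte, neuronal and fibroblast nuclei. It thus separated the lineage from the other classes and not OPC from mature oligodendrocyte nuclei. Of 16 transcription factors tested, 4 were called higher than every other class (1.81% of all genes tested were), which were *Olig2*, *Sox6*, *Zeb1* and *Myt1*. *Sox6*, which acts in precursors, stood at 506, 303 and 428 CPM against 109, 95.5 and 83.7 CPM in astrocyte nuclei.

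**Figure D2:**
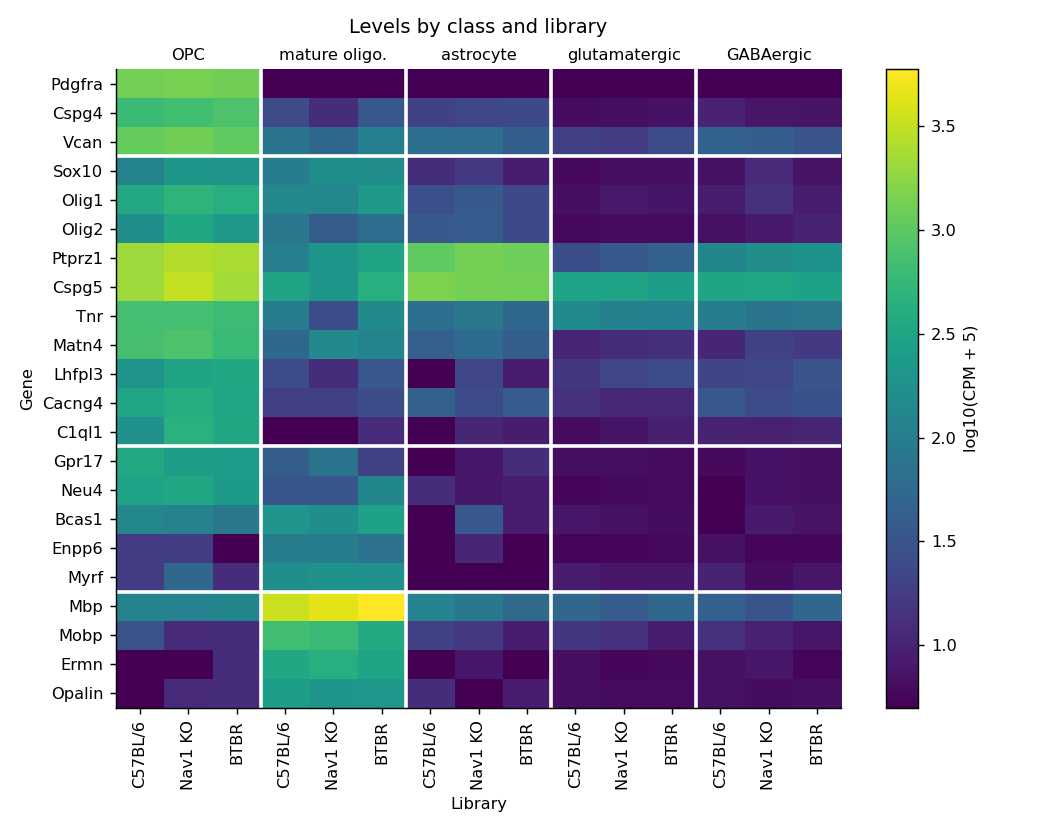
Level of 22 genes (rows) in 5 classes of nuclei and 3 libraries (columns), as the log10 of CPM plus 5. The top 3 genes chose the OPC nuclei; Ptprz1 and Cspg5 were high in OPC and astrocyte nuclei, Sox10 in OPC and mature oligodendrocyte nuclei, and the 4 myelin genes at the bottom in mature oligodendrocyte nuclei.

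Of 13 genes downstream of the PDGF receptor, *Spry4* was called higher than every other class, against 1.81% of all genes tested, and the median lowest fold was 0.692. *Pik3r1*, the regulatory subunit of PI3 kinase, stood at 215, 199.7 and 244 CPM in OPC nuclei and within 1.5-fold of this in mature oligodendrocyte and astrocyte nuclei. *Etv1*, a transcription factor of the ETS family, stood at 202, 234 and 140.2 CPM. The ligand *Pdgfa* stood at 50.6, 41.3 and 29.5 CPM in OPC nuclei and at 55.3, 42.8 and 59.2 CPM in glutamatergic nuclei. *Pdgfrb*, the receptor of mural cells, had 2, 5 and 4 UMIs in OPC nuclei. Of 10 matrix and proteoglycan genes tested, *Tnr* and *Xylt1*, which starts the sugar chains of proteoglycans, were called, against 1.81% of all genes tested (median lowest fold 0.880). *Bcan*, brevican, stood at 847, 971 and 1063 CPM in OPC nuclei and at 917, 967 and 997 CPM in astrocyte nuclei, close to each other in each library. Of 10 genes that brake or cue differentiation, *Dll1* was called (median lowest fold 0.574). With lists of this size, 1 gene called is not read as a result about the list. *Hes5*, a target of Notch, stood at 189.7, 337 and 266 CPM in OPC nuclei and at 279.8, 492 and 456 CPM in astrocyte nuclei.

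Receptors of neurotransmitters were also counted in OPC nuclei. None of 15 glutamate receptor genes and none of 6 GABA receptor genes were called, with median lowest folds of 0.405 and 0.349. These counts lie near the share over all genes tested, 1.81%, and nothing is read from them. *Gria2*, a subunit of AMPA receptors, stood at 4046, 3836 and 5152 CPM in OPC nuclei and at 4691, 4329 and 5435 CPM in glutamatergic nuclei. *Grin3a*, a subunit of NMDA receptors, stood at 177, 151 and 199 CPM in OPC nuclei and at 22.6, 17.8 and 22.8 CPM in glutamatergic nuclei, but it reached 132, 101 and 95.1 CPM in astrocyte nuclei. The noncoding neuronal RNAs *Meg3* and *Snhg11* were also counted in nearly every OPC nucleus. *Meg3* stood at 10394, 5213 and 7559 CPM in OPC nuclei against 27064, 23357 and 24751 CPM in glutamatergic nuclei, and at 7740.1, 5275 and 7408 CPM in mature oligodendrocyte nuclei. The levels of *Meg3* in the OPC nuclei of *Nav1* KO and BTBR were thus close to those in mature oligodendrocyte nuclei, and the part of RNA from other cells in neuronal genes was not tested.

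The myelin genes marked the opposite boundary. Of 5318 genes with at least 20 CPM in the mature oligodendrocyte nuclei of every library, 279 (5.25%) were at least 2-fold lower in OPC nuclei in each library, and all 12 myelin genes of the list were among them. The count was 461 without the *Nav1* KO library and 460 without the BTBR library. *Mbp*, myelin basic protein, stood at 114, 110.2 and 125 CPM in OPC nuclei and at 3418, 4486 and 5951 CPM in mature oligodendrocyte nuclei. *D7Ertd443e* and *Car14*, a carbonic anhydrase, had no UMI in the 246 OPC nuclei. With 3 counts per library in place of 0, *D7Ertd443e* was at least 6.33-fold, 9.71-fold and 7.93-fold higher in mature oligodendrocyte nuclei of C57BL/6, *Nav1* KO and BTBR. Others among the 10 genes with the lowest folds were *Ermn*, *Sec14l5*, *Mobp*, *Trim59*, *Mal* and *Opalin*, of which *Ermn*, *Mobp*, *Mal* and *Opalin* are myelin genes. *Mog* and *Mag* defined the 2 classes and were left out.

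Genes of committed precursors, the stage between OPC and oligodendrocyte, differed among themselves. *Gpr17*, a receptor of this stage, was called higher than every other class, with 28, 37 and 32 UMIs or 354, 255 and 236 CPM (lowest fold 3.39). So was *Itpr2*, an intracellular calcium channel, at 278, 220.4 and 258 CPM (2.01). These were 2 of the 6 genes of the list tested, against 1.81% of all genes tested. *Enpp6*, a marker of newly formed oligodendrocytes, had 1, 2 and 0 UMIs, and *Myrf*, the transcription factor that turns on myelin genes, had 1, 7 and 1. *Enpp6* stood at 91.8, 93.2 and 65.9 CPM and *Myrf* at 162, 179 and 176 CPM in mature oligodendrocyte nuclei. Both were called lower in OPC nuclei, as 2 of the 8 genes of the list tested, against 5.25% of all genes tested. *Bcas1* stood at 126, 110.2 and 81.2 CPM in OPC nuclei and at 198, 165 and 285 CPM in mature oligodendrocyte nuclei. *Bmp4* had 0, 3 and 1 UMIs and *Casr* had none.

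A *Gpr17* UMI was seen in 22 of 61 C57BL/6, 27 of 97 *Nav1* KO and 24 of 88 BTBR OPC nuclei. After thinning to 1000 UMIs it was seen in 13 of 37 C57BL/6 nuclei (20.2 to 52.5%), 19 of 76 *Nav1* KO nuclei (15.8 to 36.3%) and 6 of 60 BTBR nuclei (3.76 to 20.5%), the nuclei below that depth being left out. In glutamatergic nuclei at this depth the share was 0.0937%, 0.199% and 0.182%. The BTBR share was 27.3% before thinning and 10.0% after it, while its CPM lay close to that of *Nav1* KO, so no order of the libraries was read from it. Of the 10 other genes of the list, none had a higher CPM in nuclei with *Gpr17* than in those without it in all 3 libraries. With up to 1 neuronal UMI allowed, with up to 1 *Mog* or *Mag* UMI allowed, or with nuclei thinned before the rule, 1 gene did. *Casr* had no UMI, *Enpp6* had none in BTBR, *Bmp4* none in C57BL/6 and *9630013A20Rik* none in BTBR, so these 4 could not pass. *Bcas1* was higher in nuclei with *Gpr17* in C57BL/6 (218 against 63.9 CPM) and BTBR (158 against 51.3) and not in *Nav1* KO (101 against 113). *Neu4*, a sialidase, was lower in nuclei with *Gpr17* in C57BL/6 (93.3 against 426 CPM) and higher in *Nav1* KO (456 against 284).

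Cell cycle genes were concentrated in a few OPC nuclei. The 15 genes of the list, among them *Top2a*, a topoisomerase of dividing cells, and *Mki67*, the proliferation marker Ki-67, had 20, 22 and 47 UMIs in OPC nuclei, or 253, 151 and 347 CPM. The list stood at 40.4, 38.5 and 38.8 CPM in glutamatergic nuclei. There were 5 OPC nuclei with at least 8 such UMIs, 1 in C57BL/6, 1 in *Nav1* KO and 3 in BTBR, and these 5 held 60 of the 89 cell cycle UMIs of the 246 nuclei. No glutamatergic nucleus among 14517 reached 8. The most in 1 glutamatergic nucleus was 6, 7 and 7 in C57BL/6, *Nav1* KO and BTBR, so this depends on the limit of 8. The C57BL/6 nucleus had 15 such UMIs over 6 genes in 1210 UMIs, and the *Nav1* KO nucleus had 12 over 6 genes in 1678. The BTBR nuclei had 14, 11 and 8 over 7, 5 and 6 genes. Of the 5, 4 lay in the OPC cluster. At 1000 UMIs per nucleus, 5.41% of C57BL/6 (0.661 to 18.2), 1.32% of *Nav1* KO (0.0333 to 7.11) and 6.67% of BTBR OPC nuclei (1.85 to 16.2) had at least 2 cell cycle UMIs, against 0.187%, 0.239% and 0.182% of glutamatergic nuclei. The intervals of the 3 libraries overlapped, and a difference between them was not detectable at this depth. *Top2a* was seen in all 5 of these nuclei, with 2 UMIs in the C57BL/6 nucleus, 2 in the *Nav1* KO nucleus and 6, 6 and 3 in the BTBR nuclei. *Top2a* had no UMI in mature oligodendrocyte or astrocyte nuclei. *Mki67* had 3 UMIs in the C57BL/6 nucleus, 5 in the *Nav1* KO nucleus and 0, 1 and 0 in the BTBR nuclei. Over all OPC nuclei *Mki67* stood at 50.6, 48.2 and 7.38 CPM, against 4.92, 2.65 and 7.98 CPM in glutamatergic nuclei.

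**Figure D3:**
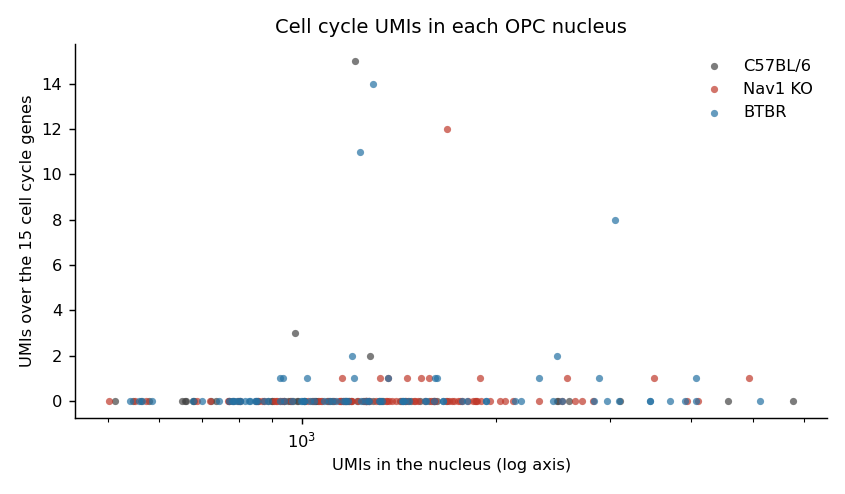
UMIs summed over the 15 cell cycle genes (y axis) against all UMIs (x axis, log) in each of the 246 OPC nuclei, coloured by library. The 5 nuclei with 8 to 15 cell cycle UMIs stand apart from the others, which hold at most 3.

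*Nav1*, the gene that carries the deletion in the knockout, was itself among the 104 genes called higher in OPC nuclei. *Nav1* (chromosome 1, 135434580 to 135607295, minus strand, mm10) encodes a microtubule-binding protein of growing processes. In OPC nuclei it had 62 UMIs in C57BL/6, or 784 CPM (601 to 1005), 87 UMIs in *Nav1* KO, or 599 CPM (479.9 to 739), and 54 UMIs in BTBR, or 399 CPM (299 to 520.1). In glutamatergic nuclei it stood at 352, 277 and 147 CPM, in GABAergic nuclei at 365, 259.5 and 153 CPM, in mature oligodendrocyte nuclei at 289.5, 179 and 102 CPM, and in astrocyte nuclei at 194, 113 and 57.1 CPM. OPC nuclei were the highest of these 5 classes in each library, astrocyte nuclei were the lowest, and glutamatergic and GABAergic nuclei lay close to each other. The OPC level was 2.23 times (1.71 to 2.86) the glutamatergic level in C57BL/6, 2.16 times (1.73 to 2.67) in *Nav1* KO and 2.72 times (2.04 to 3.56) in BTBR. Nuclei with at least 2 UMIs of the mitral and tufted cell genes, which overlap with the other classes, stood at 515, 595 and 187 CPM. OPC members were left out of this set, which left 135, 784 and 920 nuclei. With up to 1 neuronal UMI allowed the lowest fold of *Nav1* over every other class was 1.68, with at least 3 UMIs of the rule genes 1.97, and with nuclei thinned before the rule 1.46, each under the limit of 2.

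The relatives of *Nav1* did not share this pattern. *Nav2* stood at 455, 420.1 and 399 CPM in OPC nuclei and at 475, 398 and 429 CPM in glutamatergic nuclei. *Nav3*, with 31, 54 and 49 UMIs, stood below its glutamatergic level in each library, at 372 against 423 CPM in *Nav1* KO and at 362 against 436 CPM in BTBR. Of 16 adhesion and guidance genes tested, 4 were called higher than every other class (1.81% of all genes tested were), which were *Nav1*, *Pcdh15*, the semaphorin *Sema5b* and the contactin *Cntn1*.

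Between libraries, *Nav1* in OPC nuclei stood at 0.764 times (0.545 to 1.08) the C57BL/6 level in *Nav1* KO and at 0.508 times (0.346 to 0.744) in BTBR. With nuclei thinned before the rule the *Nav1* KO ratio in OPC nuclei was 1.11, on the other side of 1. In glutamatergic nuclei the ratios were 0.788 (0.759 to 0.818) and 0.417 (0.398 to 0.436). The libraries were counted from the 3' ends of transcripts, which lie outside the deleted part of exon 1, so the UMIs of *Nav1* in the *Nav1* KO library check nothing about the label.

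**Figure D4:**
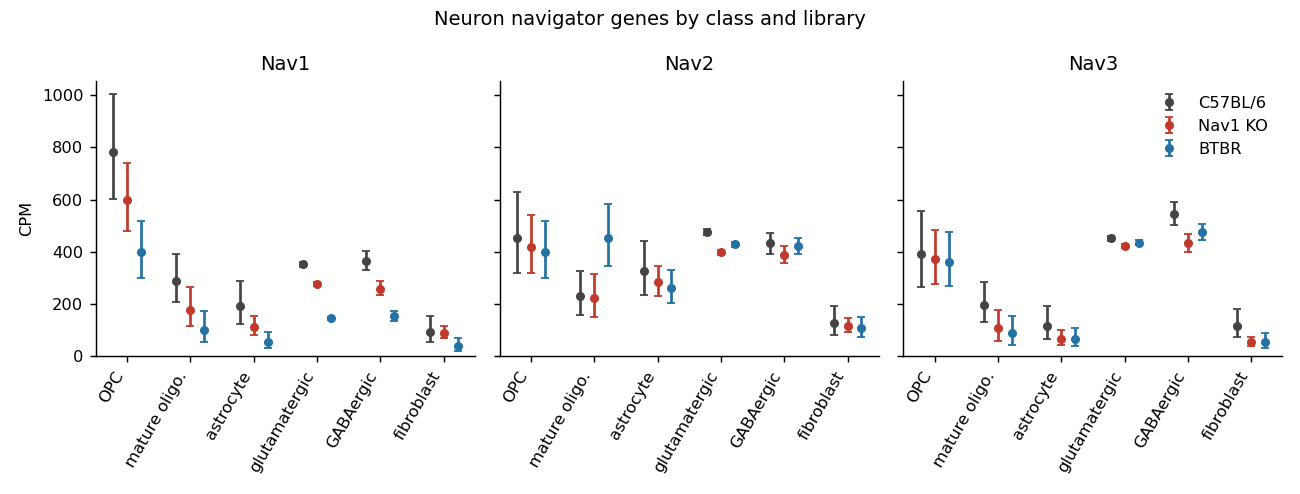
CPM of Nav1, Nav2 and Nav3 (y axis) in 6 classes of nuclei and 3 libraries, with exact Poisson 95% intervals as bars. For Nav1 the OPC nuclei stood highest in each library (784, 599 and 399 CPM), and for Nav2 and Nav3 they overlapped with glutamatergic nuclei.

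The *Nav1* KO and BTBR libraries were each set against C57BL/6 in OPC nuclei, over genes with at least 20 UMIs in 1 of the 2 libraries. Ratios are of CPM with 20 CPM added to both sides, which understates the change of low genes. Both comparisons share the C57BL/6 library, and their values are given side by side. Of 1106 genes, 194 (17.5%) were at least 1.5-fold higher and 101 (9.13%) at least 1.5-fold lower in *Nav1* KO, with a median ratio of 1.05. Of 1064 genes, 210 (19.7%) were higher and 88 (8.27%) lower in BTBR, with a median ratio of 1.08. Scaling by the median of ratios in place of total counts gave 276 higher and 61 lower for *Nav1* KO (81.9% of those past 1.5-fold higher, against 65.8%), with a median log2 ratio of 0.202 against 0.0736. In glutamatergic nuclei, which hold more UMIs, only 22 and 12 of the same 1106 genes lay past 1.5-fold for *Nav1* KO, and 43 and 20 of the 1064 for BTBR. In mature oligodendrocyte nuclei, a class nearer in size, 138 of the 1106 genes were higher and 165 lower for *Nav1* KO, and 193 and 106 of the 1064 for BTBR. In astrocyte nuclei 123 were higher and 115 lower for *Nav1* KO, and 106 and 131 for BTBR. The genes were selected on OPC counts, and the minimum of 20 UMIs stood for 253 CPM in C57BL/6 but for 138 CPM in *Nav1* KO and 148 CPM in BTBR. Genes high in the larger libraries thus passed the minimum more easily, so the split between higher and lower genes in OPC nuclei is partly set by it, and nothing is read from that split or from its difference from other classes. Marker lists of other cells also differed between the OPC nuclei of the libraries. The neuronal list, without the genes the rule used, summed to 19080.3 CPM there, 10040.0 in *Nav1* KO and 13559.8 in BTBR. The microglial list summed to 341, 82.6 and 162 CPM, with 1, 3 and 3 of its 8 genes at 0. The astrocyte list of 9 genes, led by *Slc1a2* at 582, 578 and 841 CPM, summed to 986, 1412 and 1772 CPM. The pericyte list summed to 25.3, 117 and 111 CPM, led by *Pdgfrb* in C57BL/6 and by *Vtn* in *Nav1* KO and BTBR (62.0 and 81.2 CPM), which also stood at 544, 513 and 868 CPM in fibroblast nuclei. In this list 5, 2 and 4 of 6 genes were at 0, among them *Kcnj8* and *Abcc9* in all 3 libraries. The fibroblast list, without the genes the rule used, had *Ranbp3l* as its most abundant gene, alone or tied, and summed to 25.3, 103 and 148 CPM, with 7, 5 and 3 of 9 genes at 0, among them *Bnc2*, *Eya2* and *Tbx18* in all 3. The ensheathing glia list, led by *Sox10*, which OPCs also express, summed to 291, 537 and 458 CPM. The neuronal and microglial lists were thus highest in C57BL/6, and the astrocyte, pericyte, fibroblast and ensheathing glia lists were lowest there. In C57BL/6 the pericyte sum came from 2 UMIs of *Pdgfrb*, and the fibroblast sum from 1 UMI each of *Lum* and *Ranbp3l*. The order of the libraries in these lists therefore rests on few UMIs. In the neuronal list the most abundant gene was *Meg3*, and none was at 0 in any library. Of its 4 genes tested, *Meg3* and *Snhg11* were past 1.5-fold lower in *Nav1* KO, against 9.13% of all genes tested. In BTBR *Syt1* was, against 8.27%, and with 4 genes these counts are not read as a result about the list. The part of these RNAs in the ratios was not tested.

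*Sox8*, a relative of *Sox10*, had 11 UMIs in 11 of 61 C57BL/6 nuclei, 73 in 50 of 97 *Nav1* KO nuclei and 43 in 27 of 88 BTBR nuclei. Its level was 139 CPM (69.4 to 249) in C57BL/6, 503 CPM (394 to 632) in *Nav1* KO and 317 CPM in BTBR, with ratios of 3.29 and 2.12. In mature oligodendrocyte nuclei *Sox8* stood at 70.6, 265 and 293 CPM, so both classes were lowest in C57BL/6. Astrocyte nuclei (93.3, 153 and 156 CPM) and glutamatergic nuclei (14.4, 24.1 and 31.7 CPM) were lowest there too. GABAergic nuclei, at 21.8, 18.6 and 32.0 CPM, were not. *Sox10* had ratios of 1.69 and 1.58. Among the 15 further OPC markers, *Olig2*, *Lhfpl3* and *C1ql1* were past 1.5-fold higher and *Sox6* past 1.5-fold lower in *Nav1* KO, while *Lhfpl3*, *C1ql1* and *Megf11* were past 1.5-fold higher in BTBR. The median over the 15 was 1.23 and 1.06. These counts of 3 higher and 1 lower of 15 in *Nav1* KO and 3 higher of 15 in BTBR lie near the shares over all genes tested (17.5% higher and 9.13% lower, and 19.7% higher and 8.27% lower), and nothing is read from them about OPC markers.

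The other genes with the highest ratios in *Nav1* KO were low in C57BL/6. *Pet100*, an assembly factor of cytochrome oxidase, had 2 UMIs in C57BL/6 and 28 in *Nav1* KO (ratio 4.70). *Bmp7*, a bone morphogenetic protein, had 2 and 22 (3.79), and *Phlda1* 4 and 35 (3.70). *Phlda1* had 34 UMIs in BTBR, with a ratio of 3.84. *Slc3a2*, the heavy chain of amino acid transporters, had 4 UMIs in C57BL/6, 29 in *Nav1* KO and 26 in BTBR. The rest were *Letm2*, *Cpq*, *Gm2a*, *Rpl18* and *Ntsr2*. *Ntsr2*, a neurotensin receptor that also led the astrocyte cluster, had 3, 22 and 25 UMIs with up to 7 in 1 nucleus, and among members in the OPC cluster its ratios were 1.36 in *Nav1* KO and 1.21 in BTBR, inside 1.5-fold. In BTBR, *Lsm4*, a splicing protein, had no UMI in C57BL/6 and 30 in BTBR, at least 5.84-fold higher with 3 counts in place of 0. Its ratio in glutamatergic nuclei was 7.09. *Bcas2* and *Mfge8* also had no UMI in C57BL/6, and stood at least 4.48-fold and 4.09-fold higher in BTBR. *Slc7a11*, a cystine transporter, had 27 UMIs in 9 BTBR nuclei, of which 1 UMI lay in members of the OPC cluster. *Parp8*, *Cdk5*, *Fam57b* and *Spast* completed the genes with the highest ratios in BTBR.

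Among the genes with the lowest ratios, *Sst*, the neuropeptide somatostatin, had 34 UMIs in C57BL/6 and ratios of 0.182 in *Nav1* KO and 0.176 in BTBR. A single C57BL/6 nucleus held 30 of the 34, and among members in the OPC cluster the ratios were 0.840 and 1.10. *R3hdm1* had 102 UMIs in C57BL/6 and 75 in *Nav1* KO, or 1289.7 against 516 CPM (0.410), and in glutamatergic nuclei its ratio was 0.743. A single C57BL/6 nucleus held 24 of the 102. *Flrt3*, an adhesion protein, had 21 UMIs in C57BL/6, 9 in *Nav1* KO and 6 in BTBR, with ratios of 0.287 and 0.225. *Grin2a*, a subunit of NMDA receptors of neurons, had 29 and 21 UMIs in C57BL/6 and *Nav1* KO (0.426). *Smarcad1*, *Abca1*, *Braf*, *Kif21a*, *Trank1* and *Kif3a* were the others in *Nav1* KO. In BTBR, *AC149090.1*, *AY036118* and the mitochondrial *mt-Nd3* had ratios of 0.249, 0.349 and 0.396 in OPC nuclei and 0.244, 0.423 and 0.406 in glutamatergic nuclei, close to each other. *Slc6a6*, *Sgip1*, *Elmo1*, *Tspoap1* and *Lrfn5* were the others. Of the 20 genes named for each comparison, 18 were past 1.5-fold in the same direction when members outside the OPC cluster were left out. The genes were chosen as the most extreme in these same nuclei, and 213 of the 246 members were kept. The count of 18 was therefore largely set in advance, and nothing is read from it. In BTBR the 18 include *Slc7a11*, whose ratio there was 1.54 from 0 and 1 UMIs, too few to read.

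**Figure D5:**
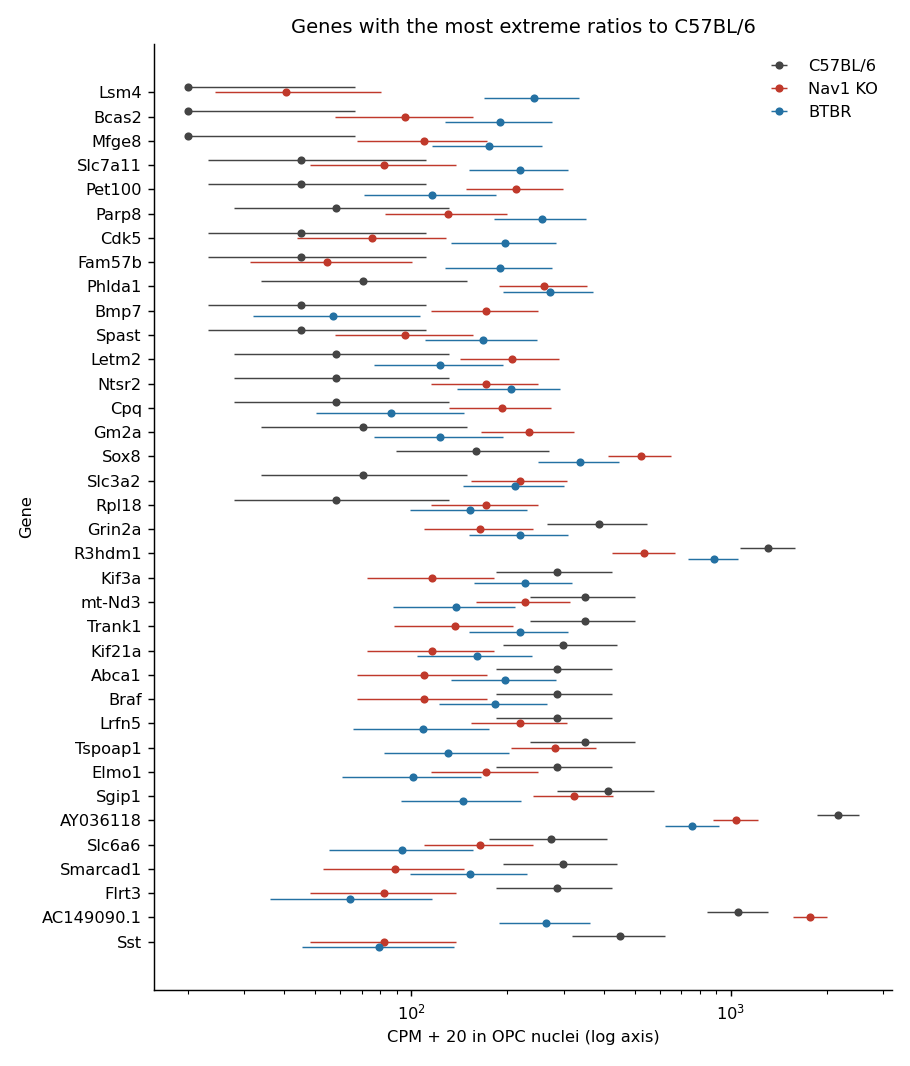
CPM plus 20 (x axis, log) in the OPC nuclei of each library for the 36 genes named by their ratio to C57BL/6, ordered by ratio, with exact Poisson 95% intervals as bars. Genes at the top were low in C57BL/6, and Sst at the bottom rests on 30 UMIs in 1 C57BL/6 nucleus.

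Promoters were read because the 104 genes were chosen for being high in the same nuclei. The 250 bases before each start site came from RefSeq on the build GRCm38.p6 (mm10), and 75 of the 104 genes matched, with 105 promoters. A motif of Sox factors, ACAAAG or its other strand CTTTGT, lay in 21 of these 105 promoters and in 16.5% of all 32851. The E-box CAGCTG, which reads alike on both strands and is bound by basic helix-loop-helix factors such as Olig2, lay in 12.4% against 13.0%. Both shares lay near those of all promoters, and nothing is read from them. A promoter with each motif is shown for genes of the 25, with the match in capitals. The *Lhfpl3* promoter (chr5:22745804-22746053, plus strand) holds the E-box at neighbouring places, and the *Tnr* promoter (chr1:159523519-159523768, plus strand) holds the Sox motif.
Lhfpl3: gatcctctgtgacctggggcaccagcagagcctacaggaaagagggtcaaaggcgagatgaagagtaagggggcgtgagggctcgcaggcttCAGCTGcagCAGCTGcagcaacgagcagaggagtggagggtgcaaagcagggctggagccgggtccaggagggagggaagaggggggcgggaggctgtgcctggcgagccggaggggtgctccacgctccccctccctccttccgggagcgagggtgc
Tnr: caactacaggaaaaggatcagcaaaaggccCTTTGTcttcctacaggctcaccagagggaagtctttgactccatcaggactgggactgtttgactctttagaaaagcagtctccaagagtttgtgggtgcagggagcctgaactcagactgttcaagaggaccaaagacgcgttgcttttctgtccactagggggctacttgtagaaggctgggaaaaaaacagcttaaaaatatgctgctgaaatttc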

How the data were processed

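The authors deposited, for each of the 3 libraries, UMI counts of each gene in each nucleus as a filtered matrix, made with Cell Ranger 6.0.0 and the mm10 reference per the labels and the study's methods. The matrices held 15402 (C57BL/6), 14623 (*Nav1* KO) and 15238 (BTBR) barcodes, and 14630, 14056 and 14778 nuclei passed the filter, which are the cell counts that the design text of the series states for the first pair; for BTBR it states 15238. They held 38704723, 50965774 and 48948184 counts. For each class and library the counts were added up gene by gene and scaled by their total (CPM). Classes were set by UMI rules and checked by Leiden clustering (scanpy 1.11.5, leidenalg 0.10.2, 2000 variable genes, 30 principal components, 20 neighbours, resolution 1.0, 23 clusters). Scrublet called 1, 1 and 0 doublets and was not usable as a filter, so no nucleus was removed. Mature oligodendrocytes had at least 2 UMIs of *Mog* and *Mag*, astrocytes at least 1 of *Aqp4* and at least 2 of *Aqp4*, *Gja1* and *Slc1a3*, glutamatergic nuclei at least 2 of *Slc17a7*, GABAergic at least 2 of *Gad1* and *Gad2*, and fibroblasts at least 2 of *Slc6a13*, *Dcn* and *Col1a2*, each with none of the rule genes of the other neuronal, myelin and fibroblast classes and, fibroblasts excepted, no *Pdgfra*. Named genes were the genes of the lists, the 25 highest over every other class, the 10 lowest against mature oligodendrocytes and the 10 highest and lowest ratios per comparison. Only the ratios of *Nav1* KO to C57BL/6 were tested on simulated counts, with planted changes larger than 1.5-fold. Members and gene lists were chosen with earlier results of these data known. Tables were handled with pandas 2.3.3 and numpy 2.4.6 under Python 3.11.15, and intervals came from scipy 1.17.1. A few list members are not reported here.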

Additional observations from a re-analysis of the deposited data

Results flagged for a closer look

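Ratios to C57BL/6 of at least 1.5-fold in opposite directions in OPC and mature oligodendrocyte nuclei were found for *Sst* and *Slc6a6*. The difference between the classes was not tested. *Sst* had ratios of 0.182 in *Nav1* KO and 0.176 in BTBR in OPC nuclei, and of 2.04 and 2.08 in mature oligodendrocyte nuclei, where it had 6 UMIs in C57BL/6 and 15 in each of the other two libraries. A single C57BL/6 OPC nucleus held 30 of the 34 *Sst* UMIs. Among members in the OPC cluster the ratios were 0.840 in *Nav1* KO and 1.10 in BTBR, both inside 1.5-fold. The *Nav1* KO ratio thus stayed below 1, and the BTBR ratio did not. Both rest on 4 UMIs in C57BL/6 and 7 in the other library, too few to read a direction from. *Slc6a6* in BTBR had a ratio of 0.344 in OPC nuclei, from 20 and 10 UMIs, and was past 1.5-fold higher in mature oligodendrocyte nuclei, from 17 UMIs in C57BL/6 and 26 in BTBR.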

How the results depend on the processing

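Of 138 values under the alternatives, 121 stayed within the limits set (the 95% interval of a share, or 1.5 times a count or percentage). Shares of few nuclei had wide limits, as 0.0333 to 7.11% for cell cycle UMIs in *Nav1* KO. Such values could hardly leave their limits, so the count of 121 does not measure how stable they are. With up to 1 neuronal UMI allowed, the OPC shares were 0.560%, 0.946% and 0.839% in C57BL/6, *Nav1* KO and BTBR, and with nuclei thinned to 1000 UMIs before the rule 0.286%, 0.523% and 0.442%. The *Nav1* KO share was 1.61 to 1.89 times and the BTBR share 1.39 to 1.54 times the C57BL/6 share under all 8 rules for members. Genes higher than every other class numbered 51 with at least 10 counts and 165 without BTBR. Genes lower than in mature oligodendrocytes numbered 156 with at least 10 counts, 419 with no filter, 461 without *Nav1* KO and 460 without BTBR. With no filter, 41.7% (*Nav1* KO) and 43.1% (BTBR) of genes were past 1.5-fold, against 26.7% and 28.0%. The share with *Gpr17* was 27.3% in BTBR unthinned, and 16.4% in C57BL/6 and 12.4% in *Nav1* KO at 500 UMIs. The causes were not tested beyond the change in genes or counts that each setting makes. No paired analysis was possible because each genotype has 1 library.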
